A study of Caenorhabditis elegans with 59 samples.

Results

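Small RNAs of Caenorhabditis elegans adults that lack the RNA helicases MUT-14 and SMUT-1 were compared with those of wild type at generation 1, gene by gene. The comparison takes 5 of the 59 libraries of the series, 2 from the strain GR1948 and 3 from the wild-type strain N2, chosen by the genotype and generation in their labels. GR1948 has the alleles mut-14(mg464) and smut-1(tm1301) on chromosome V, and unc-119(ed3) on chromosome III. The series sequenced small RNAs and mRNAs of wild type, prg-1 and mutator strains. All 5 libraries came from whole gravid adults, 72 h old, kept at 20 °C on the bacterium E. coli OP50. RNA of roughly 16 to 30 nt was cut from gels and treated with a polyphosphatase, which lets molecules with a 5′ triphosphate be captured. The wild type lacks unc-119(ed3), so an effect of that allele cannot be told apart from that of the helicase mutations. Further groups are used for reference. These are 3 small RNA libraries of SX922, which has prg-1(n4357) on chromosome I, and 3 of GR2070, called the triple mutant here, which joins prg-1(n4357) to both helicase alleles and has no unc-119 allele in its label. Also used are 6 mRNA libraries at generation 1 and 6 small RNA libraries at generation 50 of wild type and mut-14 smut-1. No label of a generation 1 library says that replicates came from separate cultures. Their p-values thus measure the spread between these samples, which may be technical. The generation 50 libraries are labelled by line, 1 to 3 for each genotype, instead of by replicate.

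In C. elegans, most antisense small RNAs are 22G-RNAs, which begin with a triphosphorylated G and are made by RNA-dependent RNA polymerases on target transcripts. One branch is made in germline foci by the mutator complex, in which the DEAD-box helicase MUT-14 and its paralog SMUT-1 act redundantly, and is loaded onto WAGO Argonautes that silence their targets. The other main branch is loaded onto the Argonaute CSR-1, targets expressed germline genes and does not need the mutator complex. ALG-3 with ALG-4, and ERGO-1, bind the primary small RNAs of sperm genes and of duplicated genes, respectively. The authors' gene classes named mut, csr, alg, ergo and histone, given in the generation 50 table, follow these branches by name. The labels do not say from which samples the classes were defined, so the classes are not independent evidence of a direction. A gene can be in several classes.

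Wild-type libraries held 1300861, 2117438 and 1448787 reads counted on genes, and the mutant libraries held 224056 and 595845. The deposited values are normalized counts, reads divided by 1 factor per library. A count of 3 reads over both mutant libraries equals a mean of 1.76 normalized counts, which is the floor used below where a gene had no read in them. Across tested genes the correlation of log2 values was 0.951 between the mutant libraries and 0.981 to 0.986 between wild-type libraries. The mutated genes fit the labels in mRNA: mut-14 had 1783, 1871 and 1777 normalized mRNA counts in wild type and 45.8, 35.99 and 46.4 in mut-14 smut-1. The mRNA of smut-1 was 1718, 1724 and 1664 in wild type against 269, 244 and 241, and unc-119 mRNA was 84.0, 109.5 and 99.8 against 26.6, 31.5 and 25.1. In prg-1 and the triple mutant, without that allele in their labels, unc-119 mRNA was 64.1, 77.7 and 53.2, and 55.4, 69.4 and 49.4.

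Replicate 1 of mut-14 smut-1 stood apart from replicate 2 in a set of genes that have many small RNAs in the prg-1 mutant. Of 2609 genes with 50 or more normalized counts in either mutant library, 17 differed by over 3-fold between the libraries, or 0.652%. All 17 were higher in replicate 1, and the lowest prg-1 mean among them was 4765 normalized counts. For nex-2, prg-1 held 14888, 17255 and 15998 normalized counts, mut-14 smut-1 replicate 1 held 116.4 and replicate 2 held 8.83. A set chosen after its values were seen, the 34 genes with a prg-1 mean of 3000 or more and a wild-type mean under 100, was higher in replicate 1 than in replicate 2 for 34 of 34. Replicate 1 held a median of 0.717% of the prg-1 level of these genes and replicate 2 held 0.0964%. Some counts and calls that change without replicate 1 are given below. Those of other classes and lists change too, so a count printed without such a remark is not shown to be unaffected. For nex-2, with 5.75, 5.06 and 8.97 in wild type, the increase was called with both mutant libraries (adjusted p = 0.030, limma) and not without replicate 1 (adjusted p = 0.41). The source of the reads was not tested.

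**Figure D1:**
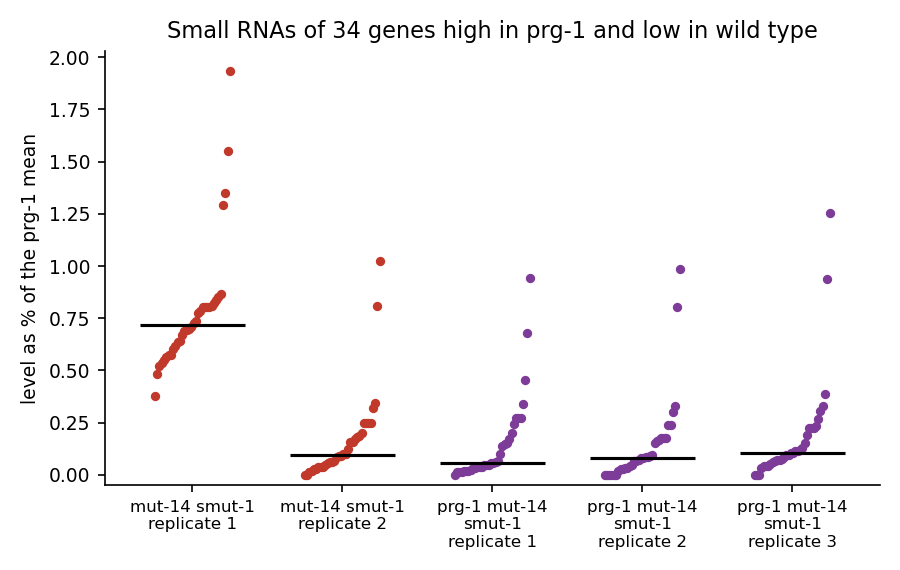
Small RNA level of 34 genes that are high in prg-1 and low in wild type, as a percent of the prg-1 mean (y axis), in each library of mut-14 smut-1 and of the triple mutant (x axis). Each point is a gene and lines are medians. Replicate 1 of mut-14 smut-1 has a median of 0.717%, against 0.0964% in replicate 2 and 0.0573% to 0.104% in the triple mutant.

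Small RNAs fell on genes of the mut class and took a larger share of the library on genes of the csr class. The mut class took 59.2%, 59.4% and 60.0% of counted reads in the wild-type libraries and 5.47% and 4.63% in mut-14 smut-1. The csr class took 29.7%, 29.4% and 28.9% in wild type and 81.3% and 82.2% in the mutant. No library of one group overlapped the other in either class. The share of the alg class rose from 6.10% ± 0.0449 (SD, n = 3) to 11.2% ± 0.0893 (SD, n = 2). In normalized counts its summed level fell, to 82.6% of wild type. The ergo class went from 2.45% ± 0.0180 to 1.05% ± 0.0304, and the histone class from 0.471% ± 0.00677 to 0.188% ± 0.0238. For each class the two-sided exact permutation test over the 5 libraries gave p = 0.2, the smallest value that 10 splits allow, so no share could reach 0.05.

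**Figure D2:**
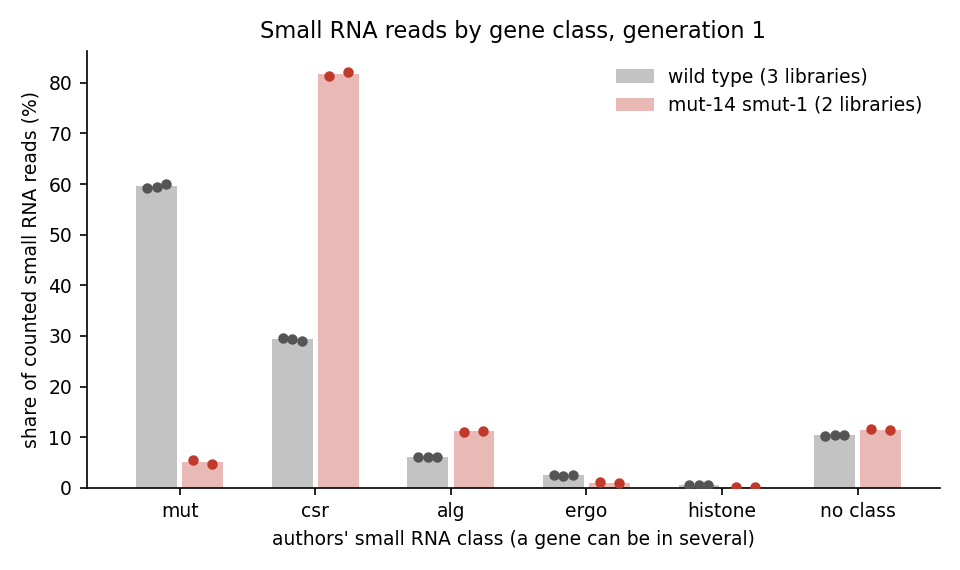
Share of counted small RNA reads (y axis, percent) on genes of each of the authors' classes (x axis), with bars at the group mean and 1 point per library. Wild type is grey (n = 3) and mut-14 smut-1 is red (n = 2). The mut class falls from a mean of 59.5% to 5.05% and the csr class rises from 29.3% to 81.8%.

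On the deposited scale the summed level of the mut class was 632296, 636757 and 649288 normalized counts in wild type and 26903 and 22156 in mut-14 smut-1. Both mutant libraries were thus far below every wild-type library, and 3.84% of the wild-type mean was left. The sum of all genes fell 2.21-fold, from 1074258 ± 7803 (SD, n = 3) to 485034 ± 9835 (SD, n = 2). The decrease over the mut class equals 104% of that decrease, since other genes rose on balance. With limma on log2(normalized count + 1), 7418 of 20475 genes passed the filter of 10 in at least 2 of the 11 generation 1 small RNA libraries. At a Benjamini-Hochberg adjusted p under 0.05, 68.7% of tested genes were called: 3476 genes (46.9%) were lower in mut-14 smut-1 and 1621 (21.9%) were higher. By size, 3051 were called lower by 2-fold or more, and 277 higher. The split depends on scaling: 31.8% of calls were higher with the deposited factors, 62.1% with library totals, 34.1% with TMM factors and 15.6% when csr-class sums were set equal. These scalings move the median log2 change of all tested genes from -0.47 to 0.70, -0.42 and -0.82. Values below are on the deposited scale, and a fold is a ratio of group means unless a log2 change is named.

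Of the 1871 mut-class genes in the table, 1742 passed the filter. Among these, 1707 were lower, 6 were higher and 29 were not called, with a median log2 change of -4.94, or -4.62 with the 318 genes at 0 reads in both mutant libraries set at the 3-read floor. The libraries did not overlap between the groups for 1725 of them, against 80.0% of all tested genes. In wild type alone 1725 of the 1742 pass the filter and in mut-14 smut-1 alone 351, so the filter favoured a decrease. The class sum above takes in all 1871 genes. Without mutant replicate 1, 1700 were lower and 3 higher. The loss was graded. An observed level under 1% of wild type was found for 660 genes, 1% to 5% for 461, 5% to 20% for 428, 20% to 50% for 158 and 50% or more for 35. With values under the 3-read floor set at the floor, 285 genes were under 1%, so for the other 375 a level that low cannot be shown at this depth. The median log2 change was -3.72 for genes with a wild-type mean of 10 to 50 normalized counts, -4.95 for 50 to 200, -6.40 for 200 to 1000 and -6.58 for 1000 or more. The pseudocount and the depth of the mutant libraries limit how low a change can read for genes of low level, so this order is not a measure of dependence.

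**Figure D3:**
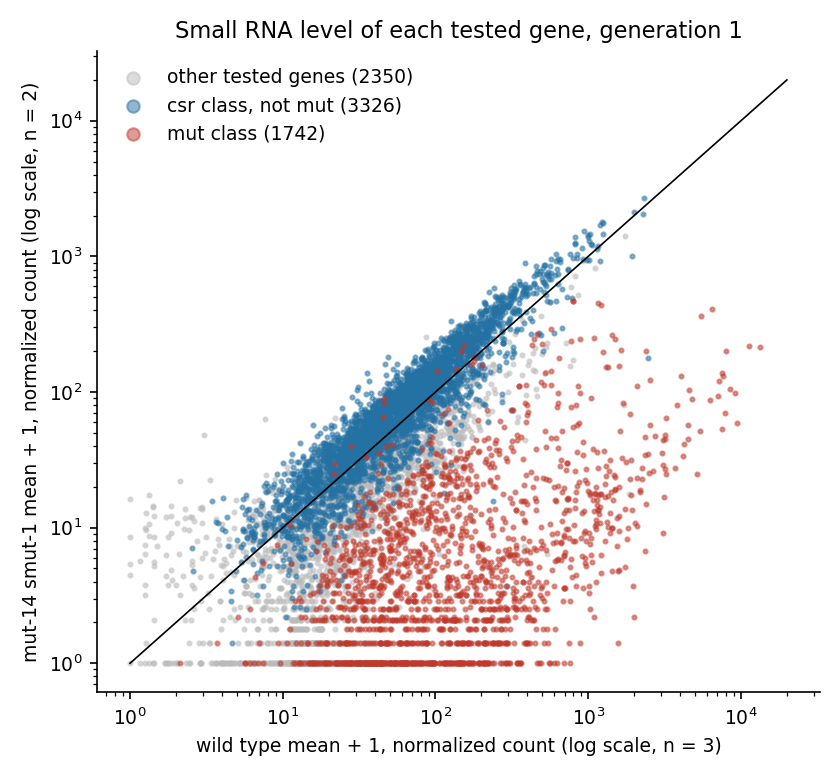
Mean small RNA level in mut-14 smut-1 (y axis, normalized count + 1, log scale, n = 2) against wild type (x axis, normalized count + 1, log scale, n = 3), 1 point per tested gene, with the line of equality. Genes of the mut class (red) lie mostly below the line, with 1707 of 1742 called lower. Most genes of the csr class outside mut (blue) lie along or above it.

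The transcripts that lost the most small RNA molecules were a mixed group of coding and noncoding genes. The noncoding RNA linc-29 had 13559, 13468 and 13248 normalized counts in wild type and 211 and 214 in mut-14 smut-1, a 63.2-fold decrease (log2 change -5.97 ± 0.86 SE, adjusted p = 0.00012, limma). F37H8.2 had 11001, 11214 and 11473 against 268 and 170.1. The aspartate aminotransferase gene got-1.2 had 9446, 9390 and 9450 against 68.1 and 48.9, a 161-fold decrease (adjusted p = 0.0019). All mutant values of these genes were below all wild-type values. Small RNAs of eri-6, which encodes part of a helicase needed for ERGO-1 small RNAs, were 9363, 8984 and 9243 in wild type and 118.6 and 77.0 in the mutant. The genes bath-20 and bath-45, of the MATH-BTB family, fell 59.0-fold and 54.65-fold, and fkb-8, an FK506-binding protein gene, fell 144-fold. The autophagy receptor gene sqst-1 had 7872, 7776 and 7904 against 122.97 and 16.0. Without replicate 1 its log2 change was -8.85, beside -7.42 with both. Its mutant values differ 7.27-fold on the scale of value + 1, and it is among the genes high in prg-1, at a mean of 19111. The 10 genes that lost most made up 15.1% of the decrease in the summed total.

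Among the genes with the largest decreases, 5 had no read in either mutant library. The gene lev-10, whose product clusters acetylcholine receptors at the neuromuscular junction, had 629.6, 609 and 647 normalized counts in wild type and 0 and 0 in mut-14 smut-1, at least 356-fold lower (adjusted p = 5.1e-07). The GABA receptor gene unc-49 had 566, 599 and 620.4 against 0 and 0, at least 338-fold lower. K10F12.6 was at least 430-fold lower, C30G12.1 at least 393-fold and comt-3, of the catechol-O-methyltransferase family, at least 316-fold. These 5 genes had no read in 819901 reads of both mutant libraries, which leaves the level below the 3-read floor and does not show that it was 0. The axon-regeneration kinase gene dlk-1 kept 1 read in 1 library, with 0 and 0.802 normalized counts against 737, 776 and 741. Y53F4B.17, with 1489, 1625 and 1580 in wild type, also had 0 and 0.802, and F39F10.2 and the globin gene glb-14 each had 0 and 2.41.

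The 3 genes listed as reporters of silencing were all lower. The sex-determination switch gene xol-1 had 414, 389 and 422 normalized counts in wild type and 0 and 2.41 in the mutant (log2 change -7.79 ± 0.60 SE, adjusted p = 1.5e-06). The F-box gene fbxb-97 had 2094, 2174 and 2297 against 22.0 and 13.6, and bath-45 had 7406, 7565 and 7565 against 145 and 130.0. Of the larger family of F-box and MATH genes, 164 of 437 in the table were tested; 144 were lower and 5 higher, with a median of -4.15 (-3.74 with undetected genes at the floor) against -0.47 for all tested genes. In wild type alone 161 of the 164 pass the filter and in the mutant alone 37, so the filter favoured a decrease. The summed level of all 437 kept 4.77% of wild type. Among them fbxb-14 fell from 4466, 4657 and 4675 to 105 and 100.3. Of the 5 that rose, 4 are in the csr class, led by 2 members: fbxa-206 had 73.9, 70.9 and 79.2 in wild type and 138 and 116.3 in the mutant, and bath-42 had 24.6, 31.9 and 27.7 against 74.7 and 54.6.

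Families of environmental and signalling genes had few members with enough small RNA to test. Of all tested genes 46.9% were lower and 21.9% higher. All 5 tested pals genes, of 37 in the table, were lower. The regulators of the intracellular pathogen response pals-22 and pals-25 had 943, 972 and 940.3 against 4.39 and 5.62, and 207, 205 and 209 against 0 and 0.802. Of 148 neuropeptide genes 11 were tested and 11 were lower. No tested pals, neuropeptide or collagen gene passes the filter in the mutant alone, while 5, 10 and 10 pass in wild type alone, so the filter largely fixed their direction. The insulin-like gene ins-17 had 359.5, 333 and 388 in wild type and 2.20 and 0.802 in the mutant. Nuclear hormone receptors gave 38 lower and 2 higher of 44 tested. Here nhr-58 went from 126, 131 and 167 to 0 and 0, whereas nhr-86, of the csr class, rose from 225, 205.6 and 197 to 415 and 386 (log2 change 0.93 ± 0.08 SE, adjusted p = 3.6e-06). Serpentine receptors gave 28 lower and 3 higher of 39, and C-type lectins 11 lower and 1 higher of 15. Cuticle collagens gave 16 lower and none higher of 18. Their summed level was 103 in mutant replicate 1 and 12.035 in replicate 2, and it was 16418 in prg-1. Without mutant replicate 1, 15 collagens were lower. Pseudogenes of the reference annotation gave 136 lower and 7 higher of 158. In wild type alone 43 of the nuclear receptors pass the filter, 32 serpentine receptors, 12 lectins and 144 pseudogenes. In the mutant alone 5, 9, 4 and 56 do, so the filter favoured a decrease here too. These families kept their negative median under all 4 scalings. The same filter was applied under each, so this is not separate support for a decrease.

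**Figure D4:**
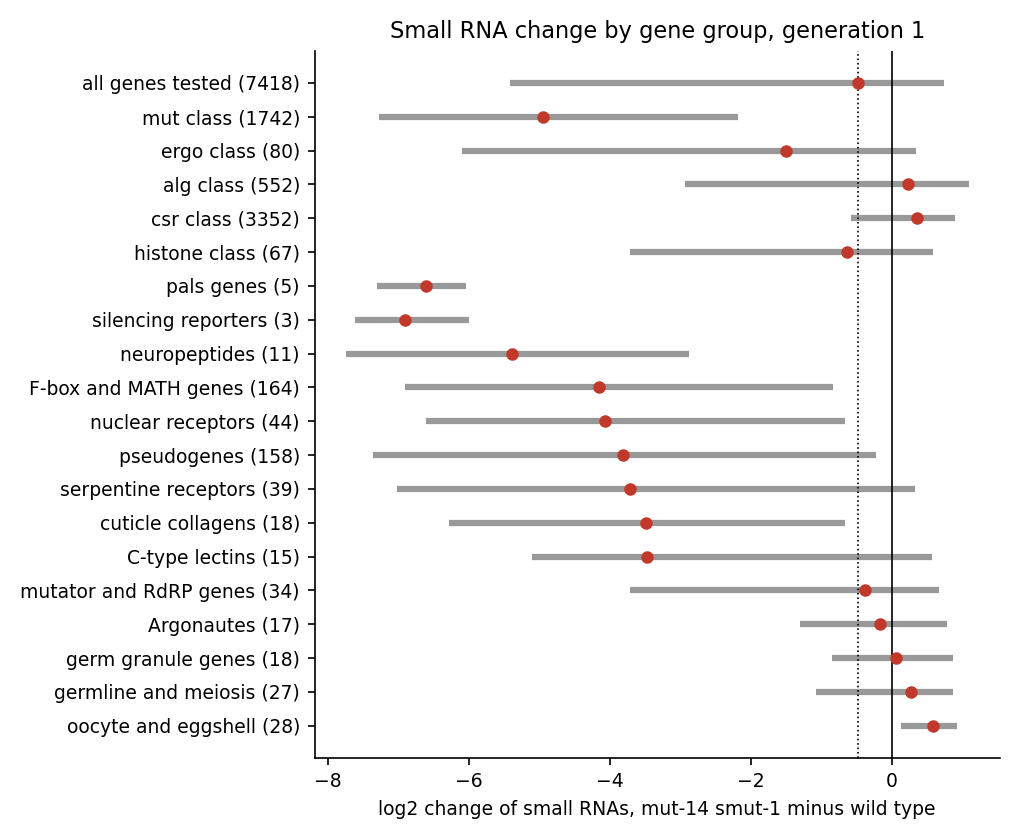
Small RNA change by gene group on the log2 scale (x axis, mut-14 smut-1 minus wild type), with the median as a red point and the 10th to 90th percentile of genes as a grey bar; the number of tested genes is in parentheses. The dotted line is the median of all 7418 tested genes, -0.47. The mut class is at -4.94 and the csr class at 0.36. With library totals all genes, the histone class, the mutator and RdRP genes and the Argonautes have positive medians, and with csr-class sums set equal the alg class, germ granule genes and germline genes have negative ones.

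Genes of the small RNA machinery are themselves targets, and they split. Among 34 tested mutator, polymerase and RNAi genes 17 (50%) were lower and 11 (32.4%) higher, beside 46.9% and 21.9% of all tested genes. The share lower is thus near that of all genes. The median of -0.38 turned to 0.74 with library totals. The RNAi factor gene rde-11 fell from 790.5, 792 and 713 normalized counts to 74.7 and 77.8, a 10.0-fold decrease (adjusted p = 4.9e-08). Small RNAs of parn-1, which encodes the nuclease that trims piRNA 3′ ends, were 886, 878 and 898 in wild type and 264 and 225 in the mutant. The Dicer gene dcr-1 had 127, 122 and 118 against 239 and 241, and the germline polymerase gene ego-1 had 451, 449 and 432 against 643 and 623. Both rose without overlap. Small RNAs of the mutated genes were also lower: mut-14 had 313, 278 and 285 against 2.20 and 3.21, smut-1 had 79.6, 110.9 and 110.6 against 10.98 and 9.63, and unc-119 had 18.9, 27.3 and 26.2 against 2.20 and 0. Their mRNA was lower too, as given above. Small RNAs of mut-14 were 448, 463 and 460 in prg-1. Those of smut-1 were 11.3, 13.9 and 11.9 in prg-1, and those of unc-119 were 0, 0.929 and 0.988 there and 0.652, 0 and 0 in the triple mutant. The prg-1 label has no smut-1 or unc-119 allele, and the triple mutant label has no unc-119 allele. Low small RNAs of smut-1 and unc-119 are thus no check of the labels.

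Among 17 tested Argonaute genes 6 (35.3%) were higher and 5 (29.4%) lower, beside 21.9% and 46.9% of all tested genes. The Argonaute counts became 15 and 1 with library totals and 1 and 11 with csr-class sums set equal. The WAGO-branch gene wago-1 rose from 250.3, 198 and 185 to 452 and 449. Small RNAs of csr-1 were 621, 618 and 602 in wild type and 439 and 491 in the mutant (log2 change -0.40 ± 0.06 SE, adjusted p = 0.00016), and of the nuclear Argonaute gene hrde-1 1240, 1174 and 1182 against 885 and 975 (log2 change -0.37 ± 0.07 SE, adjusted p = 0.00064). With library totals both changes turned positive, 0.74 for csr-1 and 0.78 for hrde-1, and with edgeR neither was called, at adjusted p = 0.12 and 0.16. The alg-4 gene, which acts in spermatogenesis, had 0, 1.01 and 0 in wild type and 6.59 and 8.83 in the mutant, near the depth limit. Of 18 chromatin and nuclear RNAi genes 10 were higher and 6 lower, against 16 and 2 with library totals and 4 and 6 with csr-class sums set equal. The histone methyltransferase gene met-2 went from 336, 335 and 327 to 558 and 561, while hpl-1, a heterochromatin protein gene of the mut class, went from 26.3, 31.9 and 30.6 to 0 and 1.60.

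Small RNAs of expressed germline genes were retained. Of the 3352 tested csr-class genes, 1468 were higher, 330 lower and 1554 not called, with a median log2 change of 0.36 and no gene at 0 in both mutant libraries. The class sum was 316858, 315665 and 313147 in wild type and 399933 and 393087 in the mutant. The median was 1.48 with library totals and 0.02 with csr-class sums set equal. Under the latter 665 were higher and 652 lower, so the count of increases depends on the scaling. The nucleoporin gene mel-28 had 392.4, 396 and 363 against 896 and 903 (log2 change 1.23 ± 0.05 SE, adjusted p = 3.1e-08). The oocyte meiosis kinesin gene klp-18 had 1289.5, 1259 and 1224 against 1763 and 1781. Both mutant libraries exceeded all wild-type libraries for both genes. Among called genes without overlap and with a mean of 50 or more, the largest increase was 3.95-fold, for F54D5.9, from 31.2, 40.5 and 32.1 to 143 and 131.

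The oocyte and eggshell list had 21 of 28 tested genes higher and none lower, with a median of 0.59 that was 0.25 with csr-class sums set equal, where 10 were higher and 2 lower. The pseudophosphatase genes egg-4 and egg-5, which act at the oocyte-to-embryo transition, rose from 476, 455 and 434 to 766 and 711, and from 492, 464 and 463 to 751 and 732. Germline and meiosis genes gave 14 higher and 4 lower of 27, with a median of 0.28 that became -0.05 with csr-class sums set equal. The shares were 51.9% and 14.8%, beside 21.9% and 46.9% of all tested genes. The synaptonemal complex gene syp-4 had 239.7, 242 and 264 against 516 and 479.8, and the axis gene htp-3 had 306, 306 and 308 against 520.4 and 514. The 4 that fell, glp-1, lag-2, fog-1 and syp-3, are outside the csr class. Without mutant replicate 2, fog-1 and syp-3 were not called (adjusted p = 0.065 and 0.066). They include the Notch receptor gene glp-1, at 223, 198 and 209 against 83.4 and 77.8, and its ligand gene lag-2, of the mut class, at 149, 142 and 145 against 2.20 and 2.41.

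A group of csr-class genes did lose small RNAs, 137 of them by 2-fold or more. The smallest p among all csr-class genes belonged to retr-1, at 2577, 2484 and 2350 normalized counts in wild type and 169 and 185 in the mutant (log2 change -3.79 ± 0.06 SE, adjusted p = 1.0e-10). The importin gene imb-2 had 1604, 1617 and 1681 against 222 and 181, and the chromosome-pairing gene zim-1 had 603, 640.5 and 669.7 against 74.7 and 89.9. Both are listed in the mut class as well as csr, and retr-1 in csr alone.

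The converse exceptions were the 35 tested mut-class genes not called lower. The number called higher was 6, 26 with library totals and 2 with csr-class sums set equal. Of the 6 called higher, prde-1, ccct-1, T02G5.11, Y79H2A.3 and ptc-1 are in the csr class as well, and F55C9.5 is in the ergo class. The piRNA transcription factor gene prde-1 had 54.996, 37.5 and 41.9 against 92.2 and 71.4. Some uncalled genes had discordant mutant libraries: lido-7 had 52.7 in replicate 1 and 4.01 in replicate 2, with 39.4, 45.6 and 43.4 in wild type. Without replicate 1 lido-7 was called lower (log2 change -3.12, adjusted p = 0.0003, limma), and F55C9.5, T02G5.11 and ptc-1 were no longer called higher (adjusted p = 0.19, 0.061 and 0.28). Others were level in all 5 libraries, such as eri-12, at 200, 157 and 179 in wild type and 182 and 181 in the mutant.

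ERGO-1-class genes fell in part. Of 80 tested, 56 (70%) were lower and 4 (5%) higher, beside 46.9% and 21.9% of all tested genes. The median was -1.50, and the class kept 19.36% of its summed level, against 3.84% for mut. The classes overlap: of the 1742 tested mut-class genes, 1687 are outside ergo. Mut-class genes outside ergo kept 3.43%. With library totals 39 ergo-class genes were lower and 24 higher. K02E2.6 kept 36.1% of wild type, with 1175, 1155 and 1314 against 439 and 439. E01G4.5 kept 2.83%, with 1201, 1351 and 1239 against 48.3 and 23.3. The 4 higher genes include cgh-1, a germ granule helicase gene also in the csr class, at 167, 181 and 173 against 334 and 322. In the alg class 204 were higher and 151 lower of 552 tested, with a median of 0.24 that became -0.15 with csr-class sums set equal. The summed level of the alg class fell, from 65625, 65433 and 65582 normalized counts in wild type to 54595 and 53655 in the mutant. The 3 alg-class genes that fell with the smallest p are also in the mut class. They were led by the pyruvate kinase gene pyk-1, at 853, 808 and 826 against 79.05 and 78.6. Sperm-specific ssp-34 had no read in wild type and 8.78 and 6.42 in the mutant.

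Histone genes did not gain small RNAs as a group. Among 64 tested core histone genes 26 were lower and 10 higher, or 22 and 5 without mutant replicate 1, and their summed level was 1242, 1241 and 1243 normalized counts in wild type and 694 and 539 in mut-14 smut-1. The shares of the 64 with both mutant libraries, 40.6% lower and 15.6% higher, stand beside 46.9% and 21.9% of all tested genes. With library totals the median turned from -0.63 to 0.29. Near-identical histone copies share reads, so these counts are uncertain as numbers of genes. The linker histone gene his-24, of the mut class, fell from 3728, 3621 and 3667 to 28.5 and 24.1. The variant H3.3 gene his-72 rose from 34.5, 38.985 and 36.6 to 92.2 and 101.

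A direct contrast sets the mut-14 smut-1 strain against the strain that lacks the piRNA Argonaute PRG-1. The prg-1 label has no unc-119 allele, so an effect of unc-119(ed3) cannot be told apart here either. The contrast comes from the same fit, in which wild type enters only the filter, the factors and the shared spread. Relative to prg-1, 1729 of 7418 genes (23.3%) were lower in mut-14 smut-1 and 798 (10.8%) were higher. This split turns with scaling, from 31.6% of calls higher to 83.2% with library totals and 57.9% with csr-class sums set equal. All 64 tested core histone genes were lower than in prg-1, with a median of -5.21, and their summed level was 40324 in prg-1. His-63, for example, had 359.6, 401 and 384 in prg-1 and 28.5 and 28.9 in mut-14 smut-1. All 64 core histone genes pass the filter in prg-1 alone, 34 in wild type alone and 18 in mut-14 smut-1 alone. The filter thus favoured this direction. All 18 tested collagens were lower as well, but 16 of them pass the filter in prg-1 alone and 10 in wild type alone, so this direction was largely fixed by the filter. The collagen gene col-111 had 5434, 6242 and 5809 in prg-1, 15.4 and 1.60 in the helicase mutant, and 171, 190.4 and 180.1 in wild type (log2 difference from prg-1 -9.80 ± 0.61 SE, adjusted p = 3.3e-07). The acyl-CoA synthetase gene acs-5 had 3996, 4422 and 4210 in prg-1 against 13.2 and 0.802. Mutant replicate 1 is the higher for both, as in the set described above. Against wild type the log2 changes were -4.79 for col-111 and -7.33 for acs-5, or -6.12 and -8.82 without that replicate.

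Of the 798 genes higher than in prg-1, 600 are in the csr class, which holds 45.2% of all tested genes. That is 17.9% of the class, beside 10.8% of all tested genes. Another 303 of the 3352 tested csr-class genes were lower than in prg-1, beside 1729 of all 7418. The median log2 difference of the class was 0.11. Its summed level was lower than in prg-1, at a mean of 396510 normalized counts against 485171. The class as a whole was thus not above its prg-1 level. Egg-5 had 309.6, 311 and 297 in prg-1 against 751 and 732 (log2 difference 1.27 ± 0.06 SE, adjusted p = 2.4e-08). Among called genes with a mean of 50 or more, F02E8.4 had the largest difference, at 5.67, 11.14 and 3.95 in prg-1, 90.03 and 74.6 in the helicase mutant. Wild type had 51.7, 63.8 and 61.3. D2005.4 had 46.5, 52.0 and 37.6 in prg-1 and 336 and 341 in mut-14 smut-1. For neither gene was the change from wild type called in the mutant (adjusted p = 0.20 and 0.44, limma), while edgeR called both higher, at adjusted p = 0.0019 and 0.0013. In the mut class, 803 of 1742 tested genes were lower than in prg-1 and 51 higher. Without mutant replicate 1 the number of genes above prg-1 fell to 465.

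The residue of mut-class small RNAs was compared side by side with the triple mutant. For the 148 mut-class genes with a wild-type mean of 1000 or more, mut-14 smut-1 replicate 1 held a median of 1.48% of the wild-type level and replicate 2 held 0.857%. Triple mutant replicates 1 and 2 held 0.173% and 0.181%, and replicate 3 held 1.53%. Replicate 3 of the triple mutant had 0.996% at the 10th percentile, where the other 2 had 0%. For Y53F4B.5 the mutant held 222 and 177 normalized counts and the triple mutant 7.17, 9.57 and 39.2, against 2400, 2344 and 2432 in wild type. All 11 libraries share 1 estimate of spread, so the errors printed here take in such differences: got-1.2 had 1.95, 1.37 and 142 in the triple mutant and 226, 27.9 and 15.8 in prg-1. Without its replicate 3, 3522 genes were lower and 1653 higher than wild type.

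The mRNA of small RNA targets was read in separate libraries of the same genotypes, 3 each. Of 14555 genes tested in mRNA, 78.3% were called: 5564 (38.2%) were higher and 5835 (40.1%) lower in mut-14 smut-1, with 2784 (19.1%) higher by 2-fold or more and 2.53% lower by that much. With library totals 61.6% of calls were higher, against 48.8%. Tissue markers moved as well: all 31 tested major sperm protein genes were higher, with a median log2 change of 3.14, as were 121 of 135 cuticle collagens, 65 of 79 spermatogenesis genes and 12 of 12 body wall muscle genes. All 31 oocyte and eggshell genes, 26 of 27 germline genes and all 6 vitellogenin genes were lower, with medians of -0.65, -0.50 and -0.86. Of 14 intestine genes 8 were higher and 3 lower, with a median of 0.34. In whole animals a smaller number of cells of a type and less RNA per cell cannot be told apart, and the part of tissue makeup in the small RNA and mRNA results was not tested.

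Against that background, mRNA rose by 2-fold or more for 228, or 15.4%, of the 1477 mut-class genes lower in small RNA and tested in mRNA. The share was 5.94% for the 6970 small RNA-tested genes with an mRNA test and 19.1% for all 14555 genes tested in mRNA. It was 20.8% for the 7950 of the latter without a class. Whether 15.4% is high or low thus depends on the genes set beside it. Of the 1477, 536 were higher, 530 lower and the median was 0.03. For csr-class genes with lower small RNA, 7 of 330 (2.12%) were higher and 292 (88.5%) lower. These shares are near those of all 3622 csr-class genes tested in mRNA, 1.99% and 89.8%. By small RNA level in wild type, the median mRNA change of mut-class genes was -0.06 for 10 to 50 normalized counts, -0.17 for 50 to 200, 0.18 for 200 to 1000 and 0.67 for 1000 or more. Across 1502 mut-class genes the 2 log2 changes had a correlation of -0.11. Genes are not independent replicates, and the mRNA and small RNA libraries were scaled separately.

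A small number of targets had large mRNA increases. C38D9.2 had 20.6, 19.8 and 14.7 normalized mRNA counts in wild type and 4012, 3874 and 4272 in mut-14 smut-1 (log2 change 7.72 ± 0.21 SE, adjusted p = 1.6e-14, limma), while its small RNAs went from 1529, 1510 and 1453 to 259 and 232. For sosi-1 mRNA rose from 7.73, 7.55 and 6.29 to 703, 771 and 791, and small RNAs fell from 975, 1082 and 1064 to 98.8 and 80.2. F15D4.5 mRNA went from 81.6, 76.4 and 75.5 to 4886, 4759 and 5210. No mutant library of these genes overlapped wild type in either RNA fraction. ZC15.3 rose from 10.3, 2.83 and 7.34 to 849, 820.2 and 931 in mRNA. The reporter genes fbxb-97 and bath-45 rose to 375, 326 and 368 from 32.6, 38.7 and 28.3, and to 307, 294 and 292 from 57.5, 50.96 and 60.8. The third, xol-1, did not pass the test in mRNA, with 37.7, 39.1 and 46.8 against 45.6, 40.2 and 45.2 (adjusted p = 0.67). C38D9.2 kept 16.4% of wild type, sosi-1 8.61% and F15D4.5 6.32%.

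**Figure D5:**
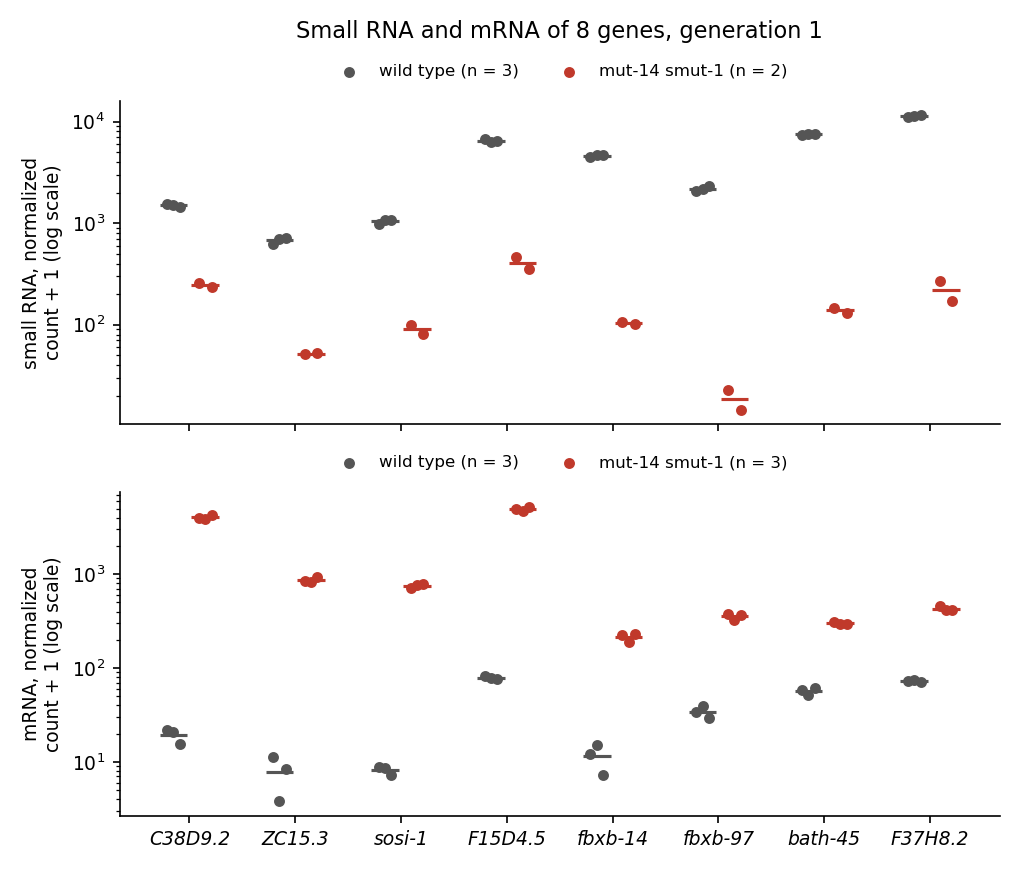
Small RNA (upper panel) and mRNA (lower panel) levels of 8 genes in normalized counts + 1 on log scales (y axes), 1 point per library with lines at group means; wild type is grey and mut-14 smut-1 red. Small RNAs are lower and mRNA higher in every mutant library for each gene, as for C38D9.2, with 4012, 3874 and 4272 mRNA counts in the mutant. The genes were picked by their mRNA increase, their small RNA loss or as reporters.

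Large small RNA losses were not always joined by large mRNA gains. The mRNA of got-1.2 went from 993, 1039 and 962 to 1702, 1699 and 1827 (log2 change 0.80 ± 0.05 SE, adjusted p = 3.2e-10), and sqst-1 mRNA from 799, 783 and 753 to 1091, 1201 and 1184. Lev-10 mRNA rose from 262, 245 and 283 to 434, 368 and 418, and unc-49 mRNA from 110.1, 101 and 121 to 178, 135 and 184. These increases are under 2-fold, and body wall muscle markers had a median of 0.89 in the same libraries.

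The same genotypes at generation 50 gave a like pattern in a table that was scaled separately, so no test was run across the tables. There 5789 of 10968 features (52.8%) were higher and 2848 (26.0%) lower, and with library totals 2852 were higher and 3179 lower. Of 1586 mut-class genes tested at both generations, 1568 were lower and 1 higher at generation 50, with a median of -4.96. The csr class had 1700 higher and 274 lower of 3031. Of the 1875 genes lower at generation 1 and tested at generation 50, 1723 were lower again, and of 1317 higher, 1144 were higher again. Linc-29 had 29959, 31699 and 32853 normalized counts in wild type and 550.0, 507 and 349 in mut-14 smut-1 at generation 50, with a log2 change of -6.09 ± 0.24 SE beside -5.97 at generation 1. For retr-1 the change was -1.82 ± 0.32 SE at generation 50 beside -3.79, and for C38D9.2 it was -1.64 ± 0.15 SE beside -2.61. The sqst-1 gene held 79.4, 87.0 and 98.1 in the 3 mutant libraries of generation 50, where the generation 1 replicates held 122.97 and 16.0.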

How the data were processed

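Small RNA libraries of generation 1 (11) and generation 50 (12) and mRNA libraries of generation 1 (12) were used. The small RNA and mRNA tables hold a signal per gene, a normalized count that the authors deposited, judged from the values: reads divided by 1 factor per library for small RNAs, and read or estimated counts so divided for mRNA, which was rRNA-depleted per the labels' protocols. For generation 1 small RNAs, 100% of values were whole multiples of 1 step per library (tolerance 0.01 reads), so whole reads were recovered. The factors equal median-ratio factors. For the aligner, counter, annotation, build and use of strand, the sources used here give no name. Genes that overlap or have near-identical copies may therefore share reads.

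Log2(value + 1) was fitted with limma 3.58.1 in R 4.3.3, with a trended prior and 1 mean per group, over all 4 generation 1 groups for the small RNA contrasts, and Benjamini-Hochberg adjustment over all genes tested. Genes needed 10 in at least 2 libraries (3 for mRNA and generation 50). Standard errors pool the spread of all groups. Class shares were tested by exact permutation of libraries, two-sided.

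Alternatives were library totals, TMM, median-ratio and csr-class scaling, no filter or a filter of 50, a pseudocount of 10, the compared groups alone, the replicate number as a block, edgeR 4.0.16 and DESeq2 1.42.0 on whole reads, and each library left out. The generation 50 alternatives and the fit without replicate 3 of the triple mutant were added after seeing the data. Recovered reads gave 2197 genes higher and 3317 lower with edgeR's quasi-likelihood test. Names were matched by gene ID to RefSeq genes of WBcel235 for 20028 of 20475 genes. At generation 50 the genes listed once, under mut, csr or histone, were set beside generation 1.

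Named genes are a selection of the mutated genes, the 10 largest decreases and increases among called genes without overlap and a mean of 50 or more, the 10 with most counts lost and 5 with most gained, up to 3 each way per list and class by smallest p, the 8 largest mRNA increases among genes lower in small RNA, and the 5 each way farthest from prg-1. Others were named after their values were seen: nex-2, lido-7, eri-12, syp-3, the other mut-class genes called higher, and in mRNA the genes already named for small RNAs. The genes, lists and comparisons were chosen with earlier results of these data known. The floors cover counting error alone.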

Additional observations from a re-analysis of the deposited data

Results flagged for a closer look

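The csr-class gene C47E8.4 changed in opposite directions at the 2 generations, with every mutant library above wild type at generation 1 and every one below it at generation 50. At generation 1 it had 34.5, 41.5 and 31.4 normalized counts in wild type and 129.6 and 109.9 in mut-14 smut-1, a log2 change of 1.72. At generation 50 it had 914, 953 and 1060 in wild type and 318, 373 and 314 in mut-14 smut-1, a log2 change of -1.54. The difference was not tested, since the tables were scaled separately. It is 1 of 8 genes called in opposite directions among 2875 called at both generations.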

How the results depend on the processing

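With 224056 and 595845 reads, the mutant libraries limit how far a loss can be measured, and with 2 libraries no share of a class can pass an exact test. Against wild type, the count of higher genes was 3859 with library totals and 732 with csr-class sums set equal, and that of lower genes was 2018 with a filter of 50. Leaving out 1 library gave 1321 to 1653 higher and 3189 to 3522 lower. Against prg-1, 5041 genes were higher and 1016 lower with library totals, 1936 were higher with csr-class sums and 1413 with edgeR, and leaving out 1 library gave 465 to 889 higher and 1516 to 1832 lower. In mRNA, leaving out 1 library gave 5094 to 5331 higher and 5502 to 5658 lower. At generation 50 library totals gave 2852 higher, and leaving out 1 library gave 3970 to 5211 higher and 2437 to 2857 lower. The difference in share, mutant minus wild type, stayed between -54.9 and -54.1 percentage points for mut, 51.9 and 52.9 for csr, 4.995 and 5.12 for alg, -1.42 and -1.38 for ergo and -0.300 and -0.267 for histone. Medians turned sign for the alg class with csr-class sums (-0.15) and, with library totals, for the histone class (0.29) and all genes (0.70). Log2 changes of csr-1 (0.74), hrde-1 (0.78) and syp-3 (0.22) turned positive with library totals, and that of eri-12 turned to -0.31 with csr-class sums. With the replicate number as a block 1533 genes were higher and 3416 lower against wild type, and every named small RNA and mRNA change kept its direction and side of the threshold. Same-numbered libraries did not deviate together. The cause of these shifts beyond the scaling and the number of genes or samples was not tested.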
